A study of Mus musculus with 33 samples.

Results

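Lung microRNAs were compared between vehicle-instilled mice killed 28 days and 1 day after the instillation. The members were all mouse miRNAs of the array, 611 of the 650 it carries, on the 12 vehicle arrays of these days out of 33 arrays in the series. Each group held 6 female C57BL/6 mice with 1 array per mouse. All 12 mice were given the same fluid into the trachea, 0.9% NaCl in purified water with 10% acellular bronchoalveolar lavage fluid and a dose of 0 mg particles. No untouched lungs are among the samples used here, and the labels give no age, so the time since instillation, the age of the mouse and a recovery from the instillation cannot be told apart. Vehicle lungs of day 3 (6 mice) and lungs given 0.162 mg of the carbon black nanoparticle Printex 90 in the same vehicle and taken at day 1 (6 mice) or day 28 (5 mice) served as further reference.

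A microRNA is a short RNA that guides an Argonaute protein to messenger RNAs that pair with its seed, bases 2 to 8 from the 5′ end, and lowers their translation or stability. Both arms of a hairpin can give a miRNA, and neighbouring hairpins are often made from 1 primary transcript, so arms and neighbours are natural groups to read together. In the adult lung, miR-126 marks endothelium, the miR-200 family epithelium, miR-199a and miR-143 mesenchymal cells, miR-223 and miR-142 white blood cells, and miR-451 red blood cells.

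The sequences below carry the comparisons that follow, with the seed in capitals. They are from RefSeq (GRCm38.p6), where 24 of the 30 miRNAs named by rule were matched. The first set holds the members of a cluster on the minus strand of chromosome X that includes miR-542-5p, which shares the smallest adjusted p with miR-877*. These mature sequences lie at chrX:53048206-53048227 (miR-450a-5p, first copy), chrX:53049415-53049436 (miR-542-3p), chrX:53049453-53049474 (miR-542-5p) and chrX:53054306-53054327 (miR-322), and the 4 seeds differ.
miR-542-5p: cUCGGGGAucaucaugucacga
miR-542-3p: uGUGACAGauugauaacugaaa
miR-450a-5p: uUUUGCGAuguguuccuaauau
miR-322: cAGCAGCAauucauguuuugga

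The miR-29 family is shown because its members share 1 seed and differ at few other bases, and held the only called rise. miR-29a and a copy of miR-29b lie together on chromosome 6 (chr6:31062673-31062694 and chr6:31063025-31063047, minus strand), and miR-29c and the other copy of miR-29b on chromosome 1 (chr1:195037600-195037621 and chr1:195037091-195037113, plus strand). Whether the probes of these 3 separate them was not tested.
miR-29a: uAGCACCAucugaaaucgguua
miR-29b: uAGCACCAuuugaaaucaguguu
miR-29c: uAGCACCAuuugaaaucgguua

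The next set holds 2 called miRNAs with the relatives that share their seed, so that family members can be compared. These are miR-301a (chr11:87113054-87113076) with miR-130a (chr2:84741116-84741137), and miR-148a (chr6:51269829-51269850) with miR-148b (chr15:103285185-103285206) and miR-152 (chr11:96850439-96850459).
miR-301a: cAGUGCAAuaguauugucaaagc
miR-130a: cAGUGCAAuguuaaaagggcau
miR-148a: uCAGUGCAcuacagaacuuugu
miR-148b: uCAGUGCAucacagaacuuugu
miR-152: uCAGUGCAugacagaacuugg

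The other called miRNAs with a sequence share a seed with no other called one. They are miR-96 and its neighbour miR-183 (chr6:30169506-30169528 and chr6:30169711-30169732), miR-28 (chr16:24827868-24827889), miR-218 (first copy chr5:48223966-48223986), miR-345-5p (chr12:108836989-108837010), miR-877* (chr17:35960731-35960752) and miR-702 (chr5:136991520-136991541).
miR-96: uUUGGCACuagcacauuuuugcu
miR-183: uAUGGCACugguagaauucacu
miR-28: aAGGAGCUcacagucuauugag
miR-218: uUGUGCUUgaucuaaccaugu
miR-345-5p: gCUGACCCcuaguccagugcuu
miR-877*: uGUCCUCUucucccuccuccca
miR-702: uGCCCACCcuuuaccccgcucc

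The arrays of the 2 days differed in brightness and in place. Brightness was taken as the 75th percentile of the 156 probes that every one of the 33 arrays detected, in scanner units before scaling. It was 187 to 985 with a median of 365 at day 1 and 633 to 1211 with a median of 985 at day 28. Day 28 arrays were 2.28-fold brighter (exact permutation test over 6 and 6 arrays, two-sided, p = 0.0130, adjusted p = 0.0130 over 2 measures). Mouse miRNAs above background numbered 99 to 163 at day 1 and 141 to 187 at day 28, a mean difference of 38.3 with the same exact p. Labelling spike-ins, synthetic RNAs added to each sample, were 1.55-fold higher at day 28 (exact p = 0.0779). Over the 12 arrays, 202 mouse miRNAs were above background on at least 1 array, 96 on all and 409 on none. Each slide held up to 4 arrays, and every day 1 vehicle array was at position 1 and every day 28 vehicle array at position 2 of its slide. Day and position cannot be told apart in these 2 groups, and only the day 3 vehicle arrays, 3 at each position, hold both positions. Every carbon black array of day 1 was at position 3 and every one of day 28 at position 4. Day and position therefore cannot be told apart in the carbon black changes either. At day 3, the position 1 arrays were on slides 3, 6 and 9 and the position 2 arrays on slides 1, 4 and 7. Position and slide cannot be told apart among them. The 2 vehicle arrays of slide 1, day 1 replicate 1 and day 3 replicate 2, were the highest of their groups for miR-542-5p, miR-28, miR-148a, miR-218, miR-96, miR-301a and miR-345-5p, so the main results are also given without that slide.

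**Figure D1:**
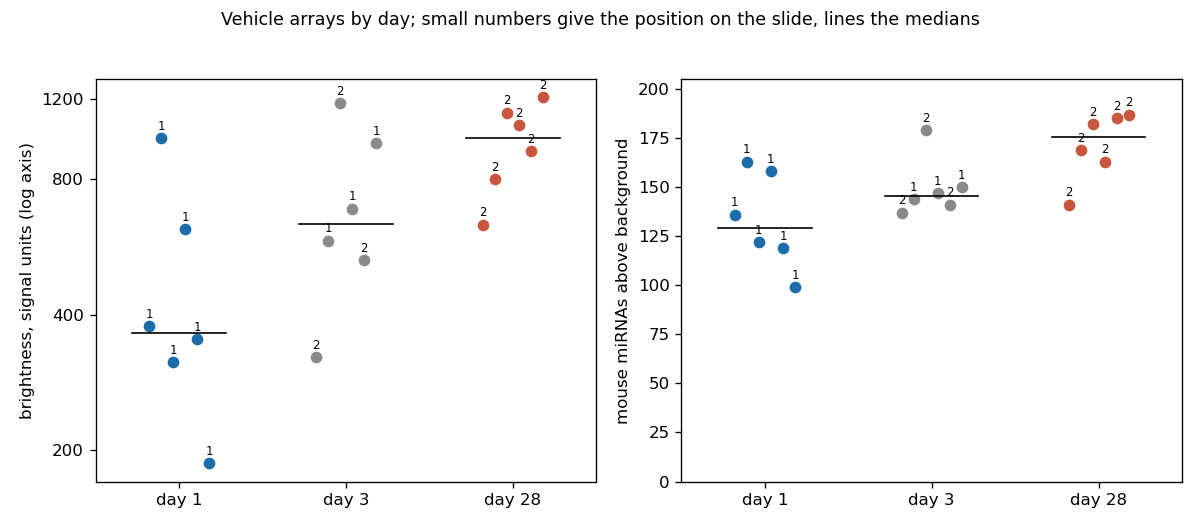
Brightness (left, 75th percentile of signal in scanner units, log axis) and number of mouse miRNAs above background (right) on each vehicle array by day, with the array's position on its slide beside each point and a line at the median. Day 1 arrays are all at position 1 and day 28 arrays all at position 2, and the median number above background is 129 at day 1 and 175.5 at day 28.

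Lung identity was checked on markers. miR-126-3p, the endothelial marker, had a log2 scaled signal of 12.37 to 12.97 at day 1 and 12.42 to 12.70 at day 28, miR-451 of red cells 12.39 to 12.98 and 12.30 to 12.86, and miR-200b of epithelium 8.42 to 9.00 and 8.35 to 8.66. Of the 4 brain markers 0 passed the filter, and of the 6 ciliated markers 3 did. Muscle markers were uneven within a day. The summed log2 level of miR-1, miR-133a and miR-133b ran from 4.77 to 9.99 at day 1 and from 5.09 to 8.00 at day 28. The liver marker miR-122 ran from the floor of 0.00 to 6.99 at day 1 and from 2.85 to 4.89 at day 28. No member of a marker list was called. In whole-lung RNA, fewer cells of a type and less RNA per cell cannot be told apart.

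At day 28, 10 mouse miRNAs and 1 viral probe were lower than at day 1 and miR-29b was higher. The test was a limma fit of 172 miRNAs over all 33 arrays with 6 group means, Benjamini-Hochberg adjusted, and a miRNA with an adjusted p under 0.05 is called. Lower calls were 6.4% and higher calls 0.581% of those tested, 6.98% in all. Without adjustment, 38 (22.1%) were lower and 4 (2.33%) higher at p under 0.05. The lower calls spanned a 1.25-fold to a 2.23-fold difference, the latter for miR-702, which was above background on 3 of 6 arrays at day 1 and 2 of 6 at day 28. The fitted change was negative for 126 miRNAs (73.3%) and the median over all 172 was -0.17 on the log2 scale, so a list is read against that median. The median moved with the scaling, to -0.64 with normexp background correction, 0.06 with the total gene signal, 0.26 with the percentile over all probes, 0.39 with the labelling spike-ins and 1.01 without scaling. The split of calls moved with it, from 2 higher and 125 lower with normexp to 0 and 2 with the total gene signal, 0 and 0 with quantile normalization, 5 and 0 with the percentile over all probes and 142 and 0 without scaling. Relative to the median of all miRNAs tested, the 11 falls stayed below and miR-29b above under each of 10 scalings or background corrections, except miR-301a, which was above it under 1 of them. Several of these settings differ only by a factor per array, which shifts all miRNAs alike. Apart from values at the floor, those settings could not change this placing.

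The calls also rested on how the spread was estimated and on single arrays. With the 12 vehicle arrays alone there were 0 calls (limma, 2 higher and 35 lower before adjustment), and with the 18 vehicle arrays of all days 0 as well (2 and 27). Without day 1 replicate 1 there were 0 calls (3 higher and 17 lower unadjusted). Lower calls numbered 2 without day 1 replicate 13 and 5 without day 1 replicate 27, the dimmest array, but 21 without day 1 replicate 17. Leaving out a day 28 array gave 2 lower calls without replicate 18 or replicate 28 and 3 without replicate 22 or replicate 32. Without slide 1, day 28 held 4 lower calls, miR-877*, miR-542-5p, miR-140 and miR-28. With slide as a fixed block, 9 were lower and 3 higher, with 8 of the 12 calls retained. With array position as a covariate (limma, 1 higher and 28 lower unadjusted) or array brightness as a covariate (0 and 10 unadjusted), the count was 0. With position the SE of each of the 12 calls was larger, and all falls kept their sign. For miR-140 the change was -0.82 ± 0.27 with position and -0.60 ± 0.15 without.

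**Figure D2:**
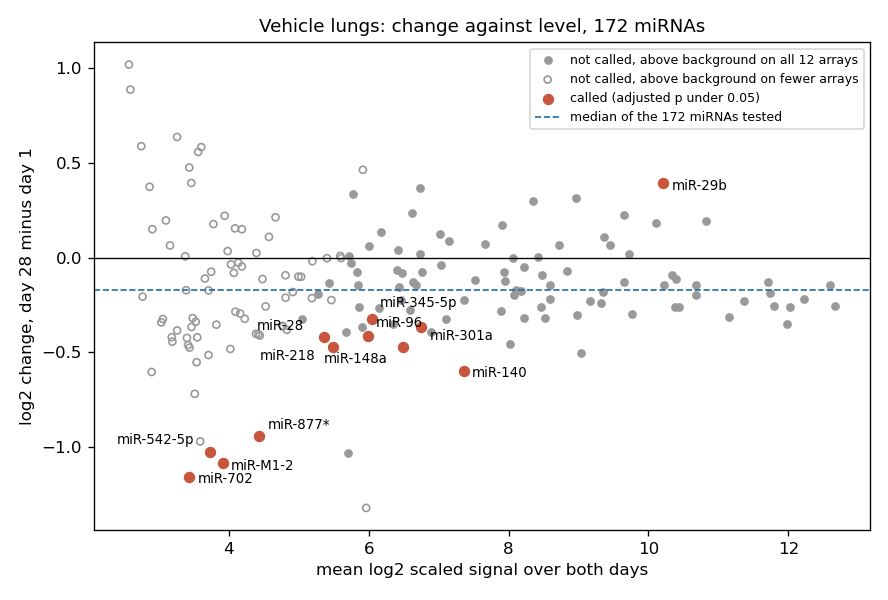
Log2 change from day 1 to day 28 in vehicle lungs (y axis) against the mean log2 scaled signal of both days (x axis) for the 172 miRNAs tested, with called miRNAs labelled and open symbols for those above background on fewer than 12 arrays. The 11 lower calls lie below the median of -0.17 (dashed line), and miR-29b is the only call above 0.

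miR-542-5p, which is cut from a hairpin of the X-linked cluster of miR-322, miR-450 and miR-542, fell 2.04-fold. Its log2 signal was 3.46, 4.12 and 5.29 (lowest, median, highest of 6) at day 1 and 2.87, 3.17 and 3.51 at day 28. Only the lowest day 1 array, at 3.46, fell among the day 28 arrays, but the day 1 arrays above that range include 3 not above background. The log2 change was -1.03 ± 0.24 (SE, adjusted p = 0.0121 by limma). The signal was lower in 3 of 3 pairs of arrays on the same slide (-1.29, -0.25 and -1.26), as for 27.9% of all miRNAs tested. It was above background on 3 of 6 arrays at day 1 and 5 of 6 at day 28. The 3 day 1 arrays not above background, replicates 13, 24 and 27, measured 4.04, 4.10 and 4.14 (in order of size). The lowest signals above background on these 3 arrays were 4.61, 4.26 and 5.20. Both the size of the fold and the separation of the 2 days are therefore uncertain. Replicate 27 is also the day 1 array of the last slide pair (-1.26). The change was -0.82 without slide 1 (adjusted p = 0.0122), -0.90 with slide as a block (adjusted p = 0.0276), -1.20 with array position as a covariate (adjusted p = 0.132) and -0.85 with array brightness as a covariate (unadjusted p = 0.00635, adjusted p = 0.273).

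At day 3, miR-542-5p stood at 3.84, 4.12 and 5.24 (lowest, median, highest), the level of day 1. Its mean changed by 0.00 from day 1 to day 3 and by -1.03 from day 3 to day 28 (adjusted p = 0.0230), the only call of that comparison (0.581% of 172), in which 2 (1.16%) were higher and 16 (9.3%) lower before adjustment. That call was lost with slide as a fixed block, with position as a covariate and with the 18 vehicle arrays alone (0 lower each). The day 28 arrays are shared by both comparisons. By position, its day 3 log2 means were 4.16 at position 1 and 4.33 at position 2. In carbon black lungs its signal was 3.55 to 3.98 at day 1 and 2.44 to 3.26 at day 28, with no overlap. It was above background there on only 4 of 6 arrays at day 1 and 2 of 5 at day 28, so this separation rests partly on values not above background. No overlap held for 4 miRNAs (2.33%) there, the others being miR-15a, miR-20a and miR-25 (named after their values were seen). The carbon black change of miR-542-5p, -0.90 ± 0.25 (SE), had an unadjusted p of 0.00104 and an adjusted p of 0.0898 by limma. Carbon black arrays of day 28 were not brighter than those of day 1, with medians of 481 and 666.

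The other members of the cluster had changes of the same sign that did not pass the threshold. miR-322, the mouse counterpart of human miR-424 and a member of the miR-15/16 seed family, measured 7.93, 8.07 and 9.01 at day 1 and 7.65, 7.77 and 8.00 at day 28 (log2 change -0.45 ± 0.16, adjusted p = 0.0938). miR-542-3p, the other arm of the miR-542 hairpin, measured 3.65, 4.05 and 5.29 and then 3.57, 3.76 and 3.98 (-0.48 ± 0.22, adjusted p = 0.189). miR-450a-5p measured 3.86, 4.39 and 4.91 and then 3.55, 4.06 and 4.62 (-0.32 ± 0.20, adjusted p = 0.297). Both miR-542-3p and miR-450a-5p were above background on 3 of 6 arrays at day 1 and 6 of 6 at day 28, so the size of their changes is uncertain. For miR-322, miR-542-3p and miR-450a-5p the groups overlapped, and each was lower in 3 of 3 slide pairs, as were 27.9% of all miRNAs tested. Of the 7 cluster members on the array 4 were tested, all 4 had a negative change and 1 was called lower, beside 73.3% negative and 6.4% called lower of all. The median change of these 4 was -0.47, against -0.17 for all miRNAs tested, and relative to the median of all it was -0.31 to -0.09 under 10 of 10 scalings. Scalings that differ only by a factor per array give nearly the same value by construction, so the 10 are not separate checks. Beside them, the carbon black changes were -0.28 for miR-322, -0.66 for miR-542-3p (unadjusted p = 0.00814) and -0.37 for miR-450a-5p. At day 28 in carbon black lungs, miR-542-3p was above background on 2 of 5 arrays and miR-450a-5p on 3 of 5. From day 3 to day 28 the vehicle changes were -0.50, -0.82 and -0.53.

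miR-140, whose gene lies in an intron of the ubiquitin ligase gene Wwp2 and which is abundant in cartilage, fell 1.51-fold. Its log2 signal was 7.11, 7.69 and 8.26 at day 1 and 6.78, 7.09 and 7.19 at day 28. Only the lowest day 1 array lay within the day 28 range, and the change was -0.60 ± 0.15 (SE, adjusted p = 0.0296). A further probe gave -0.53, and the slide pairs were split at 0.08, -0.64 and -1.48. The change was -0.59 without slide 1 (adjusted p = 0.0336), -0.82 with array position as a covariate and -0.16 with array brightness as a covariate (unadjusted p = 0.242). The highest day 1 value was on replicate 27, the dimmest array, and without it the change was -0.48 (adjusted p = 0.0596). miR-140*, the other arm, had a change of -0.15 ± 0.10 (adjusted p = 0.334). In carbon black lungs miR-140 changed by -0.42 (unadjusted p = 0.0150) and miR-140* by -0.32 (unadjusted p = 0.00552).

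miR-148a, which pairs with the DNA methyltransferase transcript Dnmt1 among others, fell 1.39-fold. It measured 6.21, 6.70 and 7.29 at day 1 and 6.14, 6.22 and 6.42 at day 28, with the lowest day 1 array inside the day 28 range (-0.47 ± 0.14, adjusted p = 0.0367). A further probe gave -0.30, and the slide pairs were split at -0.74, -0.53 and 0.19. The relatives with its seed had changes of -0.09 ± 0.11 (miR-148b, adjusted p = 0.595) and -0.00 ± 0.11 (miR-152, adjusted p = 0.991), and whether the 3 changes differ was not tested. With array brightness as a covariate the change of miR-148a was -0.50 (unadjusted p = 0.00794, adjusted p = 0.273), and without slide 1 it was -0.36 (adjusted p = 0.0738). Its carbon black change was -0.15 (unadjusted p = 0.302).

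miR-301a fell 1.29-fold, from 6.65, 6.97 and 7.27 to 6.35, 6.56 and 6.78 (-0.37 ± 0.11, adjusted p = 0.0367). The 2 ranges overlapped between 6.65 and 6.78. With array brightness as a covariate the change was -0.17 (unadjusted p = 0.151), and without slide 1 it was -0.30 (adjusted p = 0.0696). miR-130a, which shares its seed, went from a mean of 9.27 to 9.05 (-0.23 ± 0.11, adjusted p = 0.189). Relative to the median of all miRNAs tested, miR-130a changed by -0.06.

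miR-96 fell 1.33-fold. This miRNA of the miR-183 cluster, known from sensory cells and from tumours of epithelium, measured 5.87, 6.12 and 6.73 at day 1 and 5.60, 5.75 and 5.94 at day 28 (-0.41 ± 0.12, adjusted p = 0.0367). Its neighbour miR-183 measured 3.95, 4.61 and 5.49 and then 4.14, 4.20 and 4.44 (-0.41 ± 0.18, adjusted p = 0.156). In carbon black lungs the changes of this pair were -0.34 (unadjusted p = 0.0126) and -0.48 (unadjusted p = 0.0143). The change of miR-96 was -0.37 with slide as a block (adjusted p = 0.0276). It was -0.37 with array brightness as a covariate (unadjusted p = 0.0210, adjusted p = 0.574) and -0.30 without slide 1 (adjusted p = 0.0696), and neither passed.

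miR-28, whose gene lies in an intron of the adhesion gene Lpp, measured 5.29, 5.50 and 6.15 at day 1 and 4.99, 5.18 and 5.23 at day 28. All day 28 arrays were below all day 1 arrays, which held for 3 of 172 miRNAs (1.74%), the others being miR-877* and miR-207 (-0.72, adjusted p = 0.0815, named after its values were seen). For miR-28 the change was -0.42 ± 0.12 (adjusted p = 0.0367). Without slide 1, whose day 1 array was the highest, it was -0.30 (adjusted p = 0.0336), and with array brightness as a covariate -0.27 (unadjusted p = 0.0721). The related miR-151-5p had a change of -0.32 ± 0.15 (adjusted p = 0.189).

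miR-218, whose 2 copies lie in introns of the guidance genes Slit2 and Slit3, measured 5.39, 5.47 and 6.32 at day 1 and 5.01, 5.28 and 5.48 at day 28 (-0.47 ± 0.14, adjusted p = 0.0367, 1.39-fold). At day 1 replicates 1 and 5 stood at 6.32 and 6.31 and the other 4 arrays at or below 5.47, within or near the day 28 range. The change was -0.56 with array brightness as a covariate (unadjusted p = 0.00356, adjusted p = 0.273) and -0.35 without slide 1 (adjusted p = 0.108). miR-345-5p measured 5.98, 6.15 and 6.56 and then 5.74, 5.88 and 6.00 (-0.32 ± 0.09, adjusted p = 0.0367, 1.25-fold). With array brightness as a covariate its change was -0.18 (unadjusted p = 0.0977), and without slide 1 it was -0.25 (adjusted p = 0.0696).

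The 3 remaining lower calls had low signals and smaller changes with array brightness as a covariate. So did miR-140, miR-301a, miR-345-5p and miR-28, and to a lesser degree miR-542-5p (-0.85 beside -1.03) and miR-96 (-0.37 beside -0.41). Only miR-148a and miR-218 had larger falls with that covariate. miR-877* and miR-702 are known as mirtrons, miRNAs cut from short spliced introns rather than by Drosha, and their GC contents of 59.1% and 68.2% compare with a median of 40.9% over 62 matched miRNAs. miR-877* measured 4.17, 4.92 and 5.92 at day 1 and 3.73, 4.01 and 4.14 at day 28, with no overlap (-0.94 ± 0.21, adjusted p = 0.0121, 1.92-fold). A further probe gave -0.80. miR-702 measured 2.09, 4.03 and 5.61 and then 2.61, 2.80 and 3.11 (-1.16 ± 0.35, adjusted p = 0.0367), and was above background on 3 and 2 of 6 arrays. The 4 highest day 1 arrays for miR-702 were replicates 27, 13, 24 and 17, and its lowest was replicate 5, the brightest day 1 array. The probe of a viral miRNA, miR-M1-2 of a murine gammaherpesvirus, measured 3.38 to 5.88 at day 1 and 2.75 to 4.22 at day 28 (-1.08 ± 0.32, adjusted p = 0.0367) and was the only 1 of 39 viral probes above background on these arrays. The slide pairs were split for miR-702 (1.02, -1.11 and -2.51) and for miR-M1-2 (0.84, -0.52 and -2.44).

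With array brightness as a covariate the changes of these 3 were -0.22 (miR-877*), 0.07 (miR-702) and 0.04 (miR-M1-2). In carbon black lungs, where brightness did not rise from day 1 to day 28, they were 0.06, 0.13 and -0.05. The differences between the carbon black and the vehicle change were 1.00 ± 0.31 (SE, unadjusted p = 0.00319, adjusted p = 0.489), 1.29 ± 0.51 (adjusted p = 0.527) and 1.04 ± 0.47 (adjusted p = 0.572) in that order. The part of array brightness in these falls was not tested beyond these values.

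**Figure D3:**
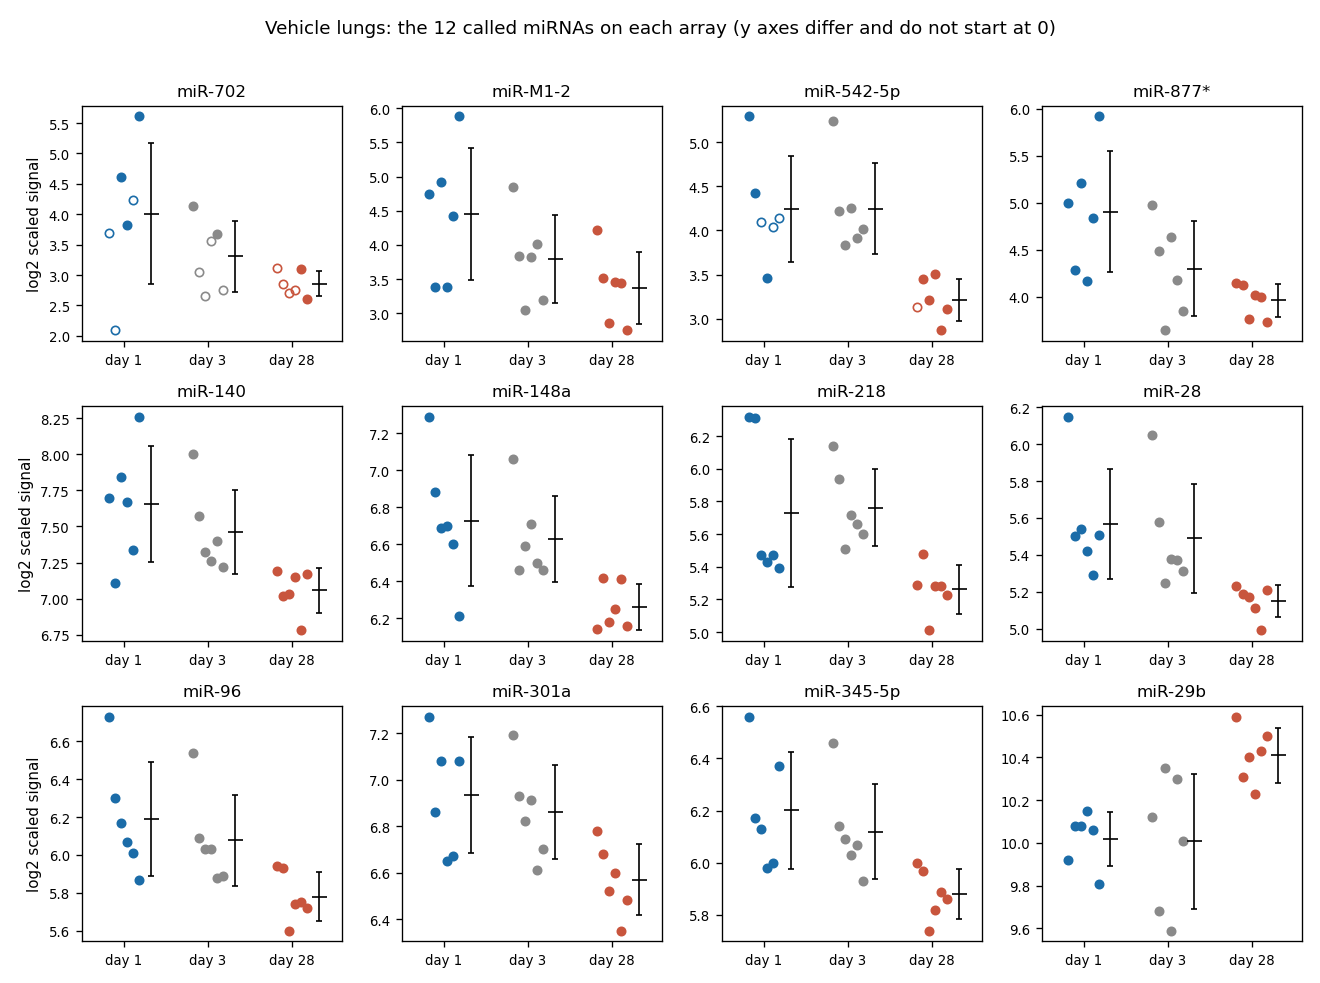
Log2 scaled signal of the 12 called miRNAs on each vehicle array at days 1, 3 and 28 (6 arrays each, in order of replicate number), with filled points above background, open points not above it, and the mean ± SD at the right of each group. Day 28 lies wholly below day 1 for miR-877* and miR-28 and wholly above it for miR-29b, and the leftmost day 1 and day 3 points are the arrays of slide 1.

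miR-29b, whose family represses collagen and other matrix transcripts, was the only called rise, 1.31-fold. Its log2 signal was 9.81, 10.07 and 10.15 at day 1 and 10.23, 10.41 and 10.59 at day 28, with no overlap (0.39 ± 0.12, adjusted p = 0.0367). All day 28 arrays were above all day 1 arrays for 1 of 172 miRNAs (0.581%). miR-29b was higher in 3 of 3 slide pairs, as were 5.23% of all miRNAs tested. miR-29c measured 8.50, 8.83 and 9.09 and then 8.96, 9.15 and 9.28 (0.32 ± 0.12, adjusted p = 0.124), and miR-29a 10.20, 10.73 and 11.10 and then 10.79, 10.89 and 11.10 (0.19 ± 0.13, adjusted p = 0.349). With slide as a fixed block all 3 were called higher, at 0.46 (miR-29b), 0.37 (miR-29c) and 0.30 (miR-29a). The median of the 3 members, 0.32, was above that of all miRNAs by 0.15 to 0.89 under 10 of 10 scalings. These 10 are not separate checks, because those that differ only by a factor per array give nearly the same value.

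Array position was compared for the miR-29 family at day 3. Among day 3 vehicle arrays, which lie on different slides at each position, miR-29b measured 9.59, 9.68 and 10.01 at position 1 and 10.12, 10.30 and 10.35 at position 2. The difference of 0.49 ± 0.14 (SE, unadjusted p = 0.00187, adjusted p = 0.322 by limma) stands beside the 0.39 between day 28 and day 1. It had the smallest p of 172 in that comparison, in which 13 (7.56%) had an unadjusted p under 0.05 and 0 were called. In a limma fit with slide as a fixed block and position as a covariate, 6 (3.49%) were called for position. They were miR-1, miR-133a, miR-133b, miR-34b-5p, miR-34c and miR-375, and the difference of miR-29b was 0.57 ± 0.17 (SE, adjusted p = 0.0783). No slide held more than 1 day 3 vehicle array, so this fit also draws on slides that pair different days. The position difference was 0.44 for miR-29a and 0.37 for miR-29c. Day 3 arrays at position 2 had a mean of 10.26, beside 10.41 at day 28 at the same position, and those at position 1 a mean of 9.76, beside 10.02 at day 1. With position as a covariate the change of miR-29b was -0.10 (adjusted p = 0.787), that of miR-29c -0.06 and that of miR-29a -0.25. The falls kept their sign under the same covariate, with -1.52 to -0.39 over the 11 of them. In carbon black lungs miR-29b changed by 0.27 (unadjusted p = 0.0417), miR-29c by 0.10 and miR-29a by 0.07.

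**Figure D4:**
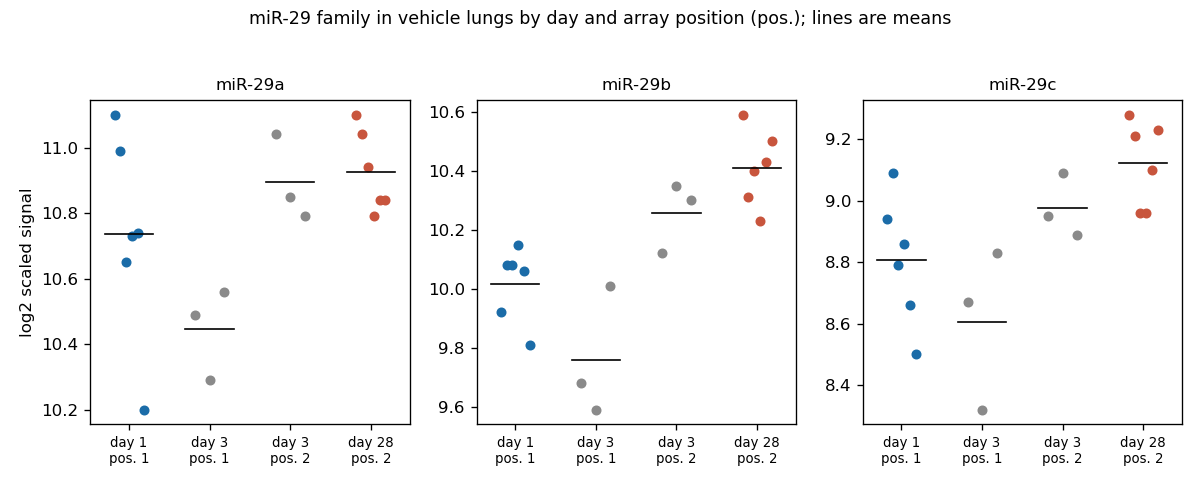
Log2 scaled signal of miR-29a, miR-29b and miR-29c on each vehicle array, split by day and by array position (pos.), with a line at each mean. Day 3 arrays at position 2 are above those at position 1 for each of the 3, with means of 10.26 and 9.76 for miR-29b.

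The other rises with the smallest unadjusted p were dim and did not pass the threshold. miR-744 (log2 change 1.02, adjusted p = 0.126), miR-203 of skin and airway epithelium (0.89, adjusted p = 0.229) and miR-222 (0.59, adjusted p = 0.229) were above background on 0 of 6 arrays at day 1 and 5 of 6 at day 28. Set against the lowest signal above background on the day 1 arrays, none of these 3 allowed a fold. miR-155, a miRNA of activated immune cells, was above background on 0 and 4 arrays (0.37, adjusted p = 0.408), likewise with no fold. miR-320 (0.48, adjusted p = 0.189), miR-375 (0.56, adjusted p = 0.262) and miR-210, the hypoxia-induced miRNA (0.64, adjusted p = 0.297), were above background on 2, 2 and 3 arrays at day 1 and 5, 6 and 6 at day 28. Without day 1 replicate 27, at the floor, the change of miR-210 was 0.049. Over all miRNAs tested, 74 were above background on more day 28 than day 1 arrays and 1, miR-702, on fewer.

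Inflammation and cell-type lists gave no other call. Of 8 miRNAs known to be induced in inflammation, 4 were tested and 0 were called. miR-21 measured 11.54, 11.88 and 12.32 at day 1 and 11.55, 11.66 and 11.83 at day 28 (-0.25 ± 0.22, adjusted p = 0.458). miR-146a changed by -0.05 (adjusted p = 0.875) and miR-146b by -0.14 (adjusted p = 0.777). miR-223 of neutrophils measured 8.03, 8.23 and 8.77 and then 7.68, 8.07 and 8.73 (-0.18 ± 0.21, adjusted p = 0.595), while in carbon black lungs its change was -0.87 (adjusted p = 0.0847). The difference between these changes was -0.69 (unadjusted p = 0.0316, adjusted p = 0.572). The median was 0.23 for the 3 myeloid markers, -0.05 for the 3 lymphoid, -0.19 for the 3 erythroid, 0.07 for the 8 epithelial, -0.07 for the 3 fibroblast, 0.22 for the 2 endothelial and 0.09 for the 1 tested smooth muscle marker, against -0.17 for all. The 2 endothelial markers had opposite signs, miR-126-3p at -0.14 and miR-126-5p at 0.58, the latter above background on 1 of 6 arrays at day 1. The 3 tested muscle markers had a median of 0.20 and the liver marker a change of -0.04. Among epithelial markers miR-200c had a change of -0.32 (unadjusted p = 0.0406, adjusted p = 0.189). Of 3 ciliated markers, miR-449a ran from 4.91 to 8.05 at day 1 and from 4.72 to 5.93 at day 28 (-1.03 ± 0.45, adjusted p = 0.167), while miR-34b-5p and miR-34c changed by 0.30 and 0.17.

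All 9 members of the let-7 family, which accumulates as cells differentiate, had a negative change, beside 73.3% of all miRNAs tested, and 0 were called. Their median was -0.23 beside -0.17 for all, and it lay above the median of all under 1 of 10 scalings (normexp, by 0.49). Scalings that differ only by a factor per array could not change this placing, apart from the floor. let-7e was the furthest, from 8.98, 9.20 and 9.94 to 8.50, 8.84 and 9.02 (-0.50 ± 0.18, adjusted p = 0.0842). In the miR-15/16 family, brakes on the cell cycle, 5 of 6 were negative with a median of -0.27 and 0 called, with miR-15a and miR-15b at -0.30 and miR-16 at 0.07. The miR-17 to miR-92a cluster, which promotes growth, had 6 of 9 negative with a median of -0.13. The miR-30 family had a median of -0.04 over 5 members and the miR-23, miR-27 and miR-24 clusters -0.13 over 5, each with 0 called. Of 7 p53-responsive miRNAs 4 were tested, with a median of 0.05 and 0 called. Of the 42 members of the imprinted Dlk1-Dio3 cluster on the array 0 passed the filter.

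For 9 of the 12 calls the day 3 mean was nearer to day 1 than to day 28. The exceptions were miR-877*, miR-702 and miR-M1-2, with day 3 means of 4.30, 3.30 and 3.79. The calls were chosen by the difference between day 28 and day 1, and the share over all miRNAs tested is not given. Day 3 arrays hold both positions, and their median brightness was 635, beside 365 at day 1 and 985 at day 28. Day 3 against day 1 gave 0 calls (0%; limma, 1 higher, 0.581%, and 8 lower, 4.65%, before adjustment), with a smallest adjusted p of 0.418.

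In carbon black lungs, the same interval gave 0 calls (0%; limma, 2 higher, 1.16%, and 25 lower, 14.5%, before adjustment) with a median change of -0.13 and a smallest adjusted p of 0.0847. Of the 12 vehicle calls, 10 had the same sign there, beside 71.5% of all miRNAs tested, and 4 (miR-542-5p, miR-140, miR-96 and miR-29b) had an unadjusted p under 0.05. The test of the difference between the carbon black and the vehicle change called 0 of 172 (limma, 7 higher, 4.07%, and 6 lower, 3.49%, before adjustment), with a smallest adjusted p of 0.489. The 5 smallest p belonged to miR-877*, miR-222 (-1.23 ± 0.45), let-7b* (1.33 ± 0.49), miR-375 (-1.25 ± 0.47) and miR-702. For miR-542-5p the difference was 0.13 ± 0.34 (SE, adjusted p = 0.956).

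**Figure D5:**
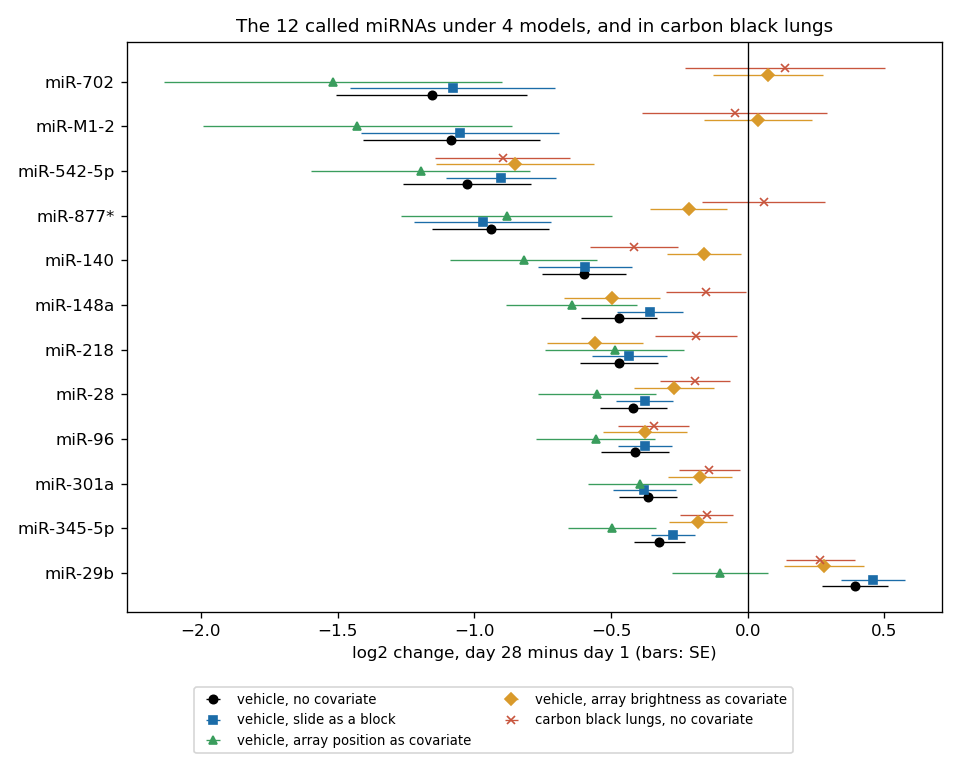
Log2 change from day 1 to day 28 (x axis, bars ± SE) of the 12 called miRNAs in vehicle lungs without a covariate, with slide as a block, with array position and with array brightness as covariates, and in carbon black lungs. miR-542-5p stays between -1.20 and -0.85 in all 5, while miR-702 and miR-M1-2 reach 0.07 and 0.04 with array brightness and miR-29b -0.10 with array position.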

How the data were processed

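Small-RNA-enriched lung RNA carrying the Cy3 dye was read on 1-colour Agilent miRNA arrays, per the labels' protocols. The authors deposited spot intensity from Feature Extraction 10.7.3.1, per the file headers, and its processed signal was used. The sources used here do not give its background correction. The authors also deposited a series table of log2 values, made in a way the sources used here do not give. Set against the log2 median signal of the same arrays, its columns had correlations of 0.981 to 0.993, and their medians were 5.41 to 5.43, so higher means brighter. Its centring stays unknown and it was used only as an alternative.

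Control spots and spots flagged as outliers (2.30%) were left out, and 0 probe values were saturated. The mean processed signal of each of 1857 probes was divided by the array's 75th percentile over 156 probes detected on all arrays (relative to the geometric mean over arrays), floored at 1 and put on the log2 scale. Values at this floor have no order. A miRNA was read from its probe with the highest mean. A miRNA above background on at least 4 arrays of any of the 6 groups was tested, 172 in all (171 of mouse). The fit was made in limma 3.58.1 under R 4.3.3 over all 33 arrays with 6 group means (lmFit and eBayes with an intensity trend, two-sided, Benjamini-Hochberg threshold 0.05), tested on simulated data. Brightness was compared by exact permutation in scipy 1.17.1. The number of arrays limits the precision. Where a group had no array above background, its partner was set against the lowest signal above background on each array.

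Members and lists were chosen with earlier results of these data known. Named miRNAs are the up to 15 largest calls per direction, filled to 8 by unadjusted p, the 5 smallest p for the difference between carbon black and vehicle, list members, and relatives by arm, by seed or within 10000 bases. Levels of different probes are not compared. Alternatives cover scaling, background, filter, slide, scan day, position and left-out arrays, and normexp used the median signal.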

Additional observations from a re-analysis of the deposited data

Results flagged for a closer look

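In 42 groups of 6 arrays checked, 5 held an array far from the others, where chance gives about 1 in 20. For miR-28 at day 1, replicate 1 measured 6.15 on the log2 scale and the next array 5.54. This array lies on slide 1, and the fall of miR-28 was -0.42 with it and -0.30 without slide 1. For miR-320, replicate 27 at day 1 measured 2.13 with the next array at 3.11, and replicate 6 at day 28 measured 3.12 with the next at 3.71. For miR-210, replicate 27 at day 1 was at the floor of 0 with the next array at 3.00. Replicate 27 was the dimmest vehicle array. For miR-375, replicate 32 at day 28 measured 4.73 with the next array at 3.86. miR-320, miR-210 and miR-375 did not pass the test.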

How the results depend on the processing

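Replicate numbers could not pair samples, because each was used once over the series and the groups have none in common. Arrays of both days on 1 slide were compared as 3 slide pairs and with slide as a block. The cause of a move was not tested unless a setting has fewer arrays or miRNAs by construction. Counts are given as higher and lower calls from day 1 to day 28, beside 1 and 11. They were 2 and 125 with normexp (on median signal), 0 and 2 with total gene signal, 0 and 0 with quantile normalization, 5 and 0 with the percentile over all probes, 142 and 0 without scaling, 0 and 3 with the median over detected probes, and 0 and 4 with the mean over the probes of a miRNA. They were 0 and 17 without the detection filter, 3 and 2 in the series table, 0 and 0 with the 12 or 18 vehicle arrays alone, 3 and 9 with slide as a fixed block, 2 and 17 with slide as a random block, 0 and 0 on shared slides only, and 2 and 14 with scan day as a block. With position they were 0 and 0, with slide and position 0 and 4, without slide 1 0 and 4, with brightness 0 and 0, with labelling spike-ins 0 and 0, and with residual background subtracted 1 and 21. The last 5, and comparing positions with slide as a fixed block (6 calls in place of 0), were chosen after seeing the data. Leaving out 1 array gave 0 to 1 higher and 0 to 21 lower. Lower calls from day 3 to day 28 were 0 with normexp, total gene signal, quantile normalization, the percentile over all probes, no scaling, no filter, the series table, the 18 vehicle arrays, slide as a fixed block, position or spike-ins, and under the filter to miRNAs above background on all arrays, 3 with a floor of 10 or with brightness, 4 with residual background, 5 (and 1 higher) with slide as a random block, 6 with slide and position, and 0 to 4 with 1 array left out. The difference between carbon black and vehicle called 97 higher with normexp, 1 lower with the percentile over all probes, 119 lower without scaling, 1 higher without the filter, and 0 to 1 higher with 1 array left out. The median of all was -0.64 with normexp, 0.26 with the percentile over all probes, 1.01 without scaling, 0.39 with spike-ins and -0.21 to -0.12 with 1 array left out.

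List medians relative to that of all miRNAs moved as follows. With normexp they were 0.50 (erythroid), 0.49 (let-7), 0.89 (miR-29), 0.39 (miR-15/16), -0.23 (hypoxia) and 0.61 (miR-23, miR-27 and miR-24). With total gene signal they were 0.26 (miR-29) and -0.16 (miR-23, miR-27 and miR-24), and in the series table -0.35 (let-7), 0.15 (miR-29), 0.069 (hypoxia) and -0.27 (miR-23, miR-27 and miR-24). On shared slides they were -0.42 (smooth muscle), -1.08 (heart and skeletal muscle) and 2.75 (liver). With position they were -0.27 (ciliated), 0.55 (fibroblast), -4.07 (liver), 0.15 (miR-29) and -0.21 (p53). With slide and position they were 0.43 (lymphoid), -0.46 (epithelial), -2.14 (ciliated), -1.13 (smooth muscle), 0.45 (fibroblast), -4.15 (heart and skeletal muscle), 0.043 (miR-29) and -0.98 (p53). Log2 changes turned sign with normexp for miR-744 (-0.88), miR-320 (-0.82), miR-203 (-0.88), miR-222 (-0.86), miR-375 (-0.82) and miR-210 (-0.87). With the percentile over all probes they turned for miR-28 (0.014), miR-96 (0.021), miR-301a (0.068) and miR-345-5p (0.11). Without scaling they turned for miR-702 (0.032), miR-M1-2 (0.10), miR-542-5p (0.16), miR-877* (0.25), miR-140 (0.59), miR-148a (0.72), miR-218 (0.72), miR-28 (0.77), miR-96 (0.78), miR-301a (0.82), miR-345-5p (0.86), miR-140* (1.03), miR-151-5p (0.87), miR-450a-5p (0.86), miR-183 (0.78), miR-130a (0.96), miR-148b (1.09) and miR-152 (1.19). miR-29b turned with position (-0.10) and with slide and position (-0.21), and miR-702 (0.073) and miR-M1-2 (0.037) with brightness. With spike-ins miR-148a (0.086), miR-218 (0.087), miR-28 (0.14), miR-96 (0.15), miR-301a (0.19) and miR-345-5p (0.23) turned. Of 429 values of the 12 calls under all settings, 404 kept their sign and 174 passed the threshold. Day 28 arrays remained 1.95-fold to 2.71-fold brighter with 1 array left out.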
